A study of Homo sapiens with 12 samples.

Results

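The actin thin filament of the sarcomere was followed here through 10 genes in cardiomyocytes made from human embryonic stem cells. They are the actins ACTC1 and ACTA1, the leiomodins LMOD2 and LMOD3, the tropomodulin TMOD1, the nebulin family members NEBL and NEB, the tropomyosin TPM1, the actin-binding repeat protein XIRP1 and the formin FHOD3. Each was taken by its symbol from the 61806 genes of the table, where each symbol matched 1 Ensembl gene, and all 10 passed the filter on low counts that left 19505 genes. The genes were chosen by name with their levels and fold changes in these libraries known, so that the values that chose them are the same FPKM and counts given here. Their values and calls are therefore a description and do not test whether they stand apart from other genes.

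All samples were H1 cells, an established human embryonic stem cell line, with a wild-type genotype. All cells were first induced toward mesendoderm progenitors with CHIR-99021, a WNT activator, on Day 0 and insulin on Day 1. NP-IWP2 cells then stayed in their wells and were given the WNT inhibitor IWP2 between Day 2 and Day 4. P-DF cells were detached with EDTA on Day 2, replated and kept in DF medium, a DMEM/F12-based medium, without IWP2, and P-IWP2 cells were replated in the same way and also treated with IWP2. The paper reports a ROCK inhibitor in all its differentiation experiments after its tests of cell survival. It names no split ratio for the Day 12 and Day 16 RNA. Replating here therefore means the whole procedure, and its parts cannot be told apart. Each treatment was sequenced on Day 12 and on Day 16 with 2 libraries, numbered 1 and 2 in NP-IWP2, 3 and 4 in P-DF and 5 and 6 in P-IWP2 cells, so there were 12 libraries in 6 groups. H1 is 1 cell line, and the labels do not say whether the 2 libraries of a group came from separate cultures, so errors and p-values measure only the spread between these libraries.

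A thin filament is a polymer of actin wound with tropomyosin. Its barbed end is anchored at the Z-disc and its pointed end faces the middle of the sarcomere, where tropomodulin caps it and leiomodin lets it grow. Nebulin runs along the filament in skeletal muscle, and the heart mainly makes its short relative nebulette at the Z-disc. The heart uses cardiac alpha-actin as its main actin from early development, together with a varying amount of the skeletal isoform, and formins help to nucleate the filaments.

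Between 14885589 and 19176239 reads were counted per library. All 11 cardiomyocyte markers had reads in every group, and their summed level, in FPKM (reads scaled to exon length and to the library total), was 2382 to 5823 on Day 12, 3482 to 4375 in NP-IWP2 cells on Day 16, 9149 to 9722 in P-DF cells and 11137 to 11369 in P-IWP2 cells. The 8 markers of skeletal muscle summed to no more than 0.48 FPKM in any library, with MYF5 at 0 in all 12. The Day 12 library labelled P-IWP2 replicate 5 stood apart from its partner. Its summed level was 139.9 FPKM for 6 epicardial and 672.8 FPKM for 6 fibroblast markers, against 0.76 and 31.59 FPKM in replicate 6. The cardiomyocyte markers of replicate 5 summed to 2382 FPKM, against 5483 FPKM in replicate 6 and 5134 to 5823 FPKM in the other Day 12 libraries. NP-IWP2 cells had 40.16 to 99.21 FPKM of the epicardial and 680.9 to 1217 FPKM of the fibroblast markers, and the other passaged libraries at most 0.84 and 31.59 FPKM. The 6 hepatic markers summed to 384.1 to 529.3 FPKM on Day 12 and 641.4 to 783.9 FPKM on Day 16 in NP-IWP2 cells. In passaged libraries they summed to at most 20.07 FPKM. In bulk RNA, fewer cells of a type and less RNA per cell cannot be told apart, and the part of other cell types in the results was not tested. Log2 fold changes (log2FC) come from edgeR's quasi-likelihood test on the counts with 1 model of all 12 libraries, and a gene was called at an adjusted p under 0.05 over all genes tested.

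The promoters of the actins and of the leiomodins are shown because these 2 pairs of paralogs differ from each other in level and open the account below. RefSeq (GRCh38.p14) gave 17 start sites for the 10 genes, and each window holds the 250 bases before a start, written 5′ to 3′ on the strand of the gene. Capitals mark a CArG box, the binding motif of serum response factor.
ACTC1, chr15:34795550-34795799, minus strand: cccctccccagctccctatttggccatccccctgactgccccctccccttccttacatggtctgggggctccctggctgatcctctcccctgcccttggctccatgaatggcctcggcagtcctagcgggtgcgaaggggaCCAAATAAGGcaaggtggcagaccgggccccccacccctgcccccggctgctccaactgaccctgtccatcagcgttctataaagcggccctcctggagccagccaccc
ACTA1, chr1:229434095-229434344, minus strand: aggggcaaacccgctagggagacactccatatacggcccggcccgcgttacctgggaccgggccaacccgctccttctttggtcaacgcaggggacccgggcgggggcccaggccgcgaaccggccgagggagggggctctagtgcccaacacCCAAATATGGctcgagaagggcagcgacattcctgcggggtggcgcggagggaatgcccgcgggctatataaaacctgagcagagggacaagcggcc
LMOD2, chr7:123655616-123655865, plus strand: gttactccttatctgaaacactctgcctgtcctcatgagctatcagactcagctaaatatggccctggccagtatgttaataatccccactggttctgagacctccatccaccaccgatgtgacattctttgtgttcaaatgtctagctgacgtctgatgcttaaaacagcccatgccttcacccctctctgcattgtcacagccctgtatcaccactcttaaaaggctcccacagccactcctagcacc
LMOD3, chr3:69122596-69122845, minus strand: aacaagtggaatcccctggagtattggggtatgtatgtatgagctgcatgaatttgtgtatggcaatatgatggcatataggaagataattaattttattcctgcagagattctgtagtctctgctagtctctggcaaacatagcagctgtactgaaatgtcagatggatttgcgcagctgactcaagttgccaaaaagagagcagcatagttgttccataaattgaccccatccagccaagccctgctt
A CArG box was found in 2 of the 17 windows, against 1.16% of all 35114 promoter windows of this length (407 windows, both strands searched). In ACTC1 it lay 109 to 100 bases before the start, in ACTA1 97 to 88 bases. The letters TATAAA, in 10.7% of all windows, began 31 bases before the start of ACTC1 and 30 bases before that of ACTA1, and were also found 220 bases before a start of TMOD1. The letters CATTCC, the core of the M-CAT motif and present in 11.9% of all windows, were found in the ACTA1 window on both strands, 70 and 47 bases before the start, and before a downstream start of ACTC1. No match overlapped another in these windows, and a match describes the sequence and does not show binding.

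ACTC1 (ENSG00000159251, chromosome 15 from 34790230 to 34795549), the cardiac alpha-actin gene, had the highest level of the 10 genes in every library. On Day 12 its FPKM was 1924 and 1596 in NP-IWP2, 2718 and 2256 in P-DF and 1120 and 2609 in P-IWP2 cells. The Day 16 FPKM was 4104 and 1807 in NP-IWP2, 5578 and 4201 in P-DF and 4104 and 7794 in P-IWP2 cells. It ranked 8th to 18th of all genes by FPKM over the 12 libraries, so it was among the most abundant transcripts under every treatment. The P-DF libraries lay above the NP-IWP2 libraries on both days, while NP-IWP2 replicate 1 on Day 16 reached the level of the lower P-IWP2 library.
The log2FC of ACTC1 against NP-IWP2 cells was 0.59 ± 0.56 (SE) for P-DF and 0.11 ± 0.55 for P-IWP2 on Day 12, and 0.93 ± 0.56 and 1.28 ± 0.56 on Day 16, none past the threshold. The Day 16 values depended on the NP-IWP2 library used: in P-DF cells the log2FC was 1.72 without NP-IWP2 replicate 1 and 0.42 without replicate 2. From Day 12 to Day 16 ACTC1 rose in P-IWP2 cells with a log2FC of 2.06 ± 0.58 (1.51 without the Day 12 replicate 5, 2.97 without replicate 6, and called in 9 of 12 models with 1 library left out), and the values of 0.88 ± 0.56 in NP-IWP2 and 1.23 ± 0.56 in P-DF cells were not called.

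ACTA1 (ENSG00000143632, chromosome 1 from 229430365 to 229434104) encodes the skeletal alpha-actin that the heart also uses. Its FPKM on Day 12 was 6.3 and 3.87 in NP-IWP2, 69.75 and 20.77 in P-DF and 8.3 and 36.5 in P-IWP2 cells. By Day 16 its FPKM was 103.1 and 7.39 in NP-IWP2, 134.4 and 66.03 in P-DF and 142.2 and 940.8 in P-IWP2 cells. Partner libraries were uneven, with a 13.9-fold difference between the NP-IWP2 libraries and a 6.61-fold difference between the P-IWP2 libraries on Day 16. On Day 12 all 4 passaged libraries exceeded both NP-IWP2 libraries, and on Day 16 NP-IWP2 replicate 1 lay within the range of the P-DF libraries.
Against NP-IWP2 cells the log2FC of ACTA1 was 3.24 ± 1.37 for P-DF and 2.18 ± 1.32 for P-IWP2 on Day 12, and 1.04 ± 1.25 and 3.57 ± 1.36 on Day 16. None of these was called. Without NP-IWP2 replicate 1 the Day 16 values were 4.04 and 6.58, and without P-IWP2 replicate 6 the value in P-IWP2 cells was 1.53. The increase over time was called in P-IWP2 cells (log2FC 4.98 ± 1.46), where it was 4.24 ± 1.46 and not called without the Day 12 replicate 5 and 6.61 without replicate 6. That call held in 6 of 12 models with 1 library left out. In NP-IWP2 cells it was 3.60 ± 1.39 and in P-DF cells 1.39 ± 1.26, neither called.

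**Figure D1:**
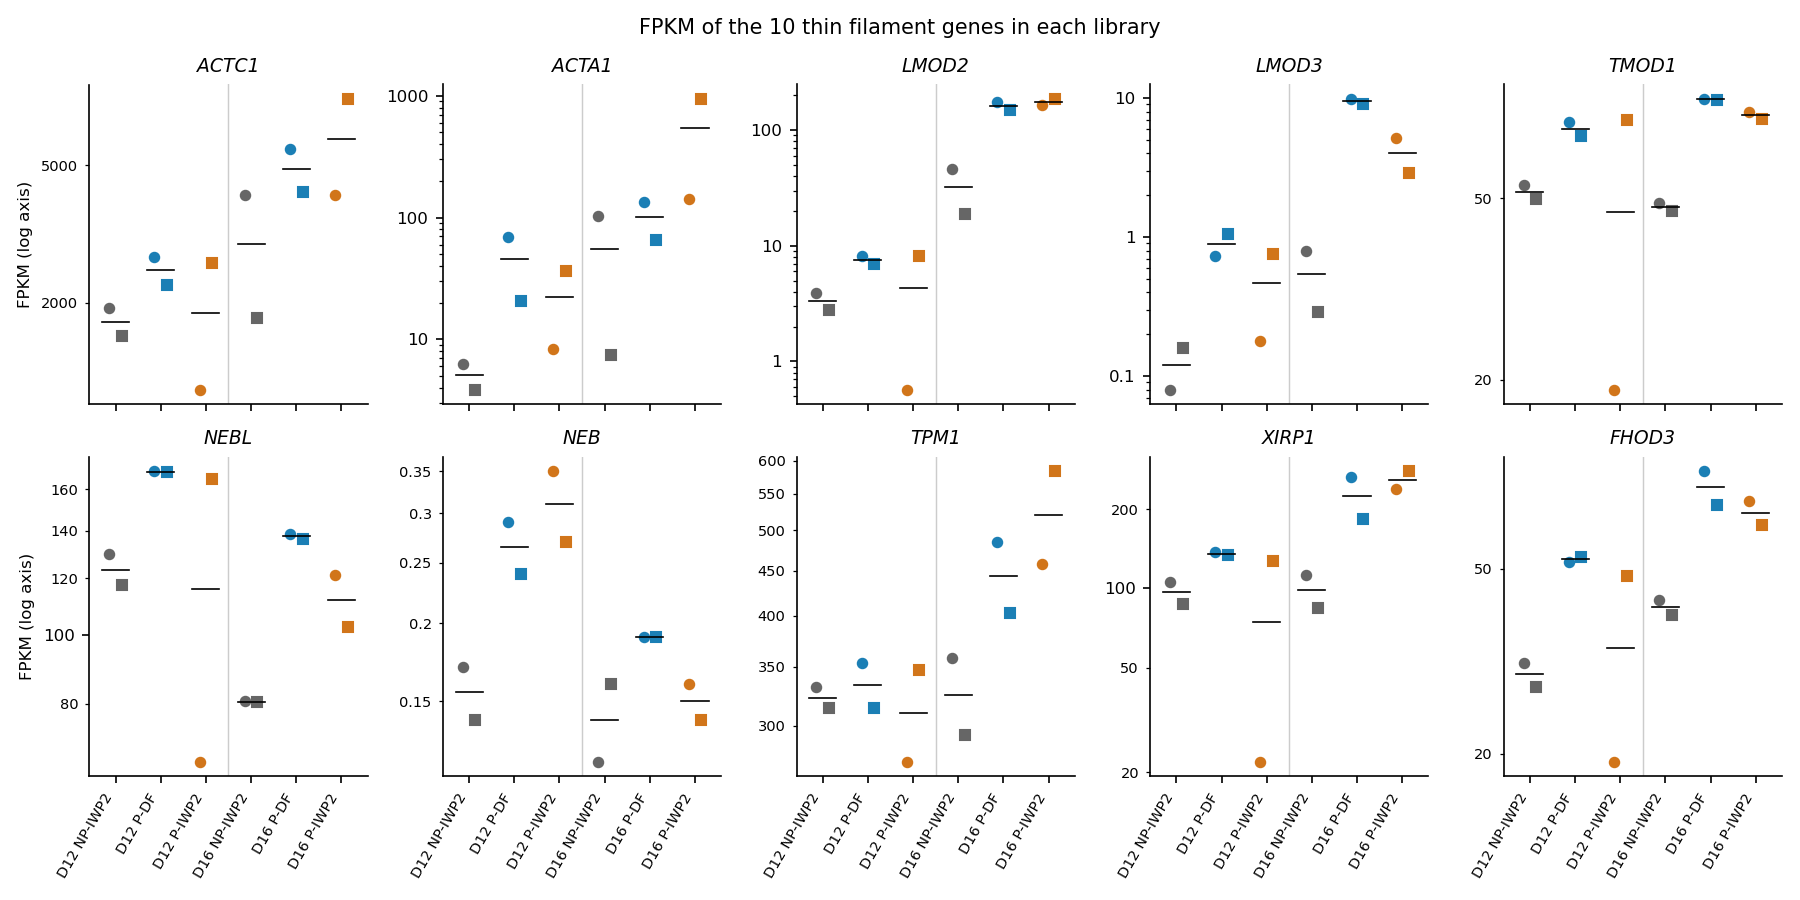
Level of each of the 10 genes in FPKM on a log axis, with 1 panel per gene and its own range. Points are libraries (circle for the lower and square for the higher library number), lines are the mean of 2 libraries, grey is NP-IWP2, blue P-DF and orange P-IWP2. LMOD2 lies at 0.57 to 8.1 FPKM on Day 12 and at 149.4 to 186.07 FPKM in passaged cells on Day 16, and the Day 12 P-IWP2 library at the bottom of most panels is replicate 5.

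The share of ACTA1 in the sum of both sarcomeric actins describes the isoform balance. It was 0.326% and 0.242% in NP-IWP2, 2.50% and 0.912% in P-DF and 0.736% and 1.38% in P-IWP2 cells on Day 12. On Day 16 the share was 2.45% and 0.407% in NP-IWP2, 2.35% and 1.55% in P-DF and 3.35% and 10.8% in P-IWP2 cells. ACTC1 thus supplied most of the sum in every library, and only in P-IWP2 cells on Day 16 did both libraries lie above those of NP-IWP2 and P-DF cells of that day. From read counts instead of FPKM the mean share per group moved from 0.284% to 0.296% at the low end and from 7.06% to 7.31% at the high end. That shift was set by the exon lengths of 2290 bases (ACTC1) and 2381 bases (ACTA1) and is no check.
The coding sequences of ACTC1 and ACTA1 are 85.7% identical over 1131 bases. The transcripts of these 2 genes share no stretch of 40 bases. The ACTC1 transcript shares 10 of its 1343 such stretches (0.745%) with ACTG1, and that of ACTA1 shares 31 of 1452 (2.14%) with ACTB, 7 with ACTG1 and 9 with ACTG2, so that reads confined to these stretches could come from more than 1 actin.
ACTA2, the smooth muscle alpha-actin that early cardiomyocytes also express, made up 4.87% to 9.82% of the summed FPKM of ACTC1, ACTA1, ACTA2 and ACTG2 in the 6 Day 12 libraries and the NP-IWP2 libraries of Day 16. In P-DF cells on Day 16 it made up 0.437% and 0.362%, and in P-IWP2 cells 0.672% and 2.32%. The P-DF libraries of Day 16 lay below all libraries of Day 12 and of NP-IWP2 cells, and so did both P-IWP2 libraries.
The ratio of ACTC1 to the cytoplasmic actins ACTB and ACTG1 together was 2.73 and 2.22 in NP-IWP2, 5.71 and 4.70 in P-DF and 0.945 and 5.13 in P-IWP2 cells on Day 12. By Day 16 the ratio was 4.75 and 2.04 in NP-IWP2, 25.7 and 21.0 in P-DF and 21.3 and 30.3 in P-IWP2 cells. All 4 passaged libraries of Day 16 thus lay above every other library in this ratio.

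**Figure D2:**
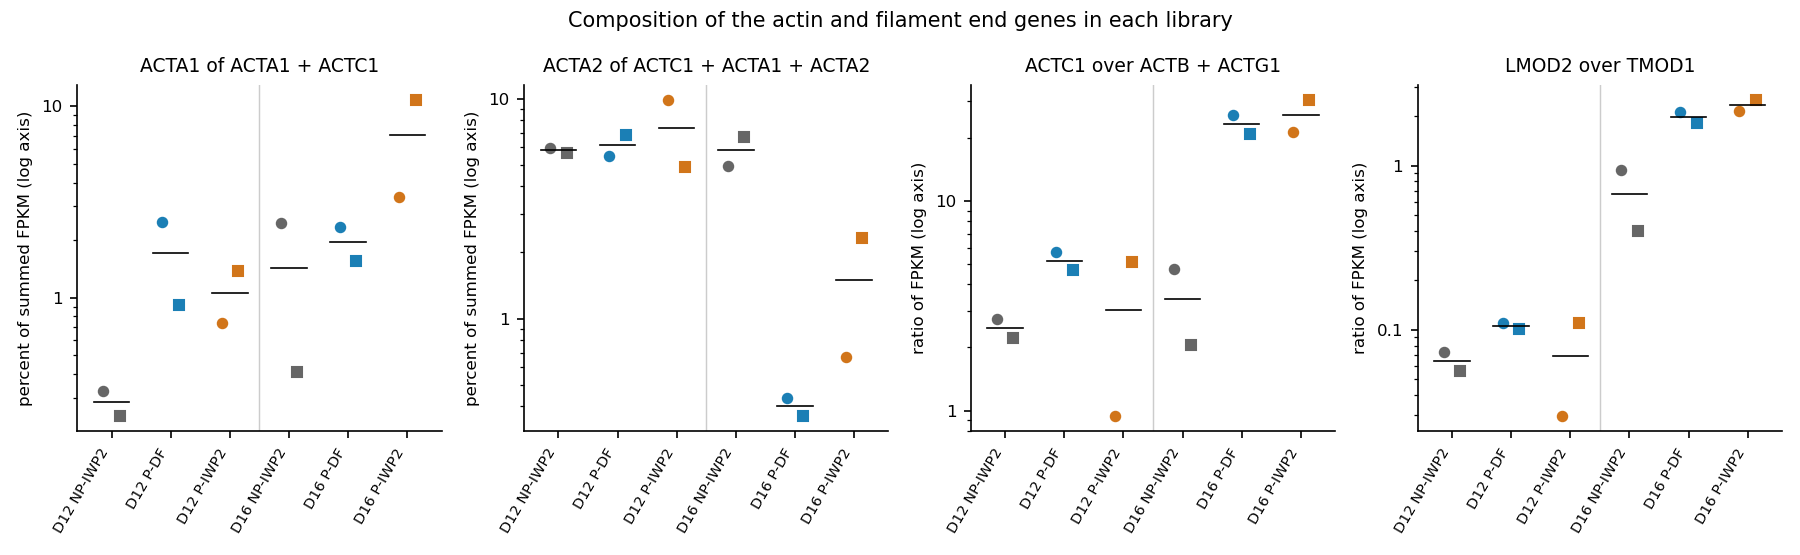
Shares and ratios of FPKM in each library on log axes, with the same symbols and colors as in the plot of the 10 genes by library. The sum under the ACTA2 share also holds ACTG2, at most 1.88 FPKM, which the panel title leaves out. The ACTC1 ratio to cytoplasmic actin is 21.0 to 30.3 in the 4 passaged libraries of Day 16 and at most 5.71 in the other 8, and the LMOD2 ratio to TMOD1 is at most 0.111 on Day 12 and between 1.82 and 2.50 in the same 4 libraries.

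LMOD2 (ENSG00000170807, chromosome 7 from 123655866 to 123664290), the cardiac leiomodin, spanned the widest range of the 10 genes, 326-fold between its lowest and highest library. On Day 12 its FPKM was 3.88 and 2.77 in NP-IWP2, 8.1 and 6.94 in P-DF and 0.57 and 8.08 in P-IWP2 cells. By Day 16 its FPKM was 46.08 and 18.67 in NP-IWP2, 175 and 149.4 in P-DF and 166.2 and 186.1 in P-IWP2 cells. Every Day 16 library lay above every Day 12 library, and on Day 16 the 4 passaged libraries lay above both NP-IWP2 libraries.
Its log2FC from Day 12 to Day 16 was 3.42 ± 0.91 in NP-IWP2 cells, not called, and LMOD2 rose in both P-DF (4.69 ± 0.95) and P-IWP2 cells (5.67 ± 1.00, or 4.75 ± 0.49 without the Day 12 replicate 5 and 8.80 without replicate 6). Against NP-IWP2 cells it was 1.26 ± 0.87 for P-DF and 0.45 ± 0.88 for P-IWP2 on Day 12, and 2.53 ± 0.86 and 2.70 ± 0.86 on Day 16, none called. Without the Day 12 P-IWP2 replicate 5 these 4 values were 1.25, 1.37, 2.53 and 2.70. Without replicate 6 of that group the Day 12 value for P-IWP2 was -2.68, opposite in sign.

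LMOD3 (ENSG00000163380, chromosome 3 from 69106065 to 69123032), the leiomodin best known from skeletal muscle, was expressed at a much lower level. Its FPKM on Day 12 was 0.08 and 0.16 in NP-IWP2, 0.73 and 1.06 in P-DF and 0.18 and 0.76 in P-IWP2 cells, from 7 to 86 reads. The Day 16 FPKM was 0.79 and 0.29 in NP-IWP2, 9.84 and 9.05 in P-DF and 5.16 and 2.89 in P-IWP2 cells, from 24 to 829 reads. On each day, every passaged library lay above both NP-IWP2 libraries of its day, and on Day 16 both P-DF libraries lay above both P-IWP2 libraries.
LMOD3 was the only one of the 10 genes called higher in both passaged groups on Day 16, with a log2FC of 4.31 ± 0.67 for P-DF and 3.11 ± 0.65 for P-IWP2. On Day 12 the values were 3.02 ± 0.78 and 2.04 ± 0.81, not called. From Day 12 to Day 16 LMOD3 rose in P-DF (3.66 ± 0.65) and P-IWP2 cells (3.44 ± 0.66, or 2.69 without the Day 12 replicate 5 and 5.02 without replicate 6), and its log2FC was 2.37 ± 0.79 in NP-IWP2 cells, not called. P-IWP2 and P-DF cells differed on Day 16 by a log2FC of -1.20 ± 0.58, which was not called with all libraries and was called without the Day 12 P-IWP2 replicate 5 (-1.20 ± 0.29). LMOD3 overlaps ARL6IP5, with up to 8163 reads, on the opposite strand by the last bases of both genes. Counting by strand is not stated in the sources used here, and opposite-strand genes also overlap ACTC1 (GJD2-DT, up to 747 reads), TMOD1 (TSTD2, 560), TPM1 (TPM1-AS, 319) and FHOD3 (TPGS2, 1520).

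TMOD1 (ENSG00000136842, chromosome 9 from 97501180 to 97601743), the tropomodulin of heart and red blood cells that caps pointed ends, varied little outside 1 library. On Day 12 it had 53.43 and 49.75 FPKM in NP-IWP2, 73.3 and 68.46 in P-DF and 19.05 and 74.04 in P-IWP2 cells. By Day 16 the gene had 48.75 and 46.8 FPKM in NP-IWP2, 82.35 and 82.1 in P-DF and 77.22 and 74.51 in P-IWP2 cells. Apart from the Day 12 P-IWP2 replicate 5, each passaged library lay above every NP-IWP2 library. The log2FC against NP-IWP2 cells was 0.55 ± 0.50 for P-DF and -0.10 ± 0.50 for P-IWP2 on Day 12, and 1.01 ± 0.50 and 0.94 ± 0.50 on Day 16, none called. Without the Day 12 P-IWP2 replicate 5 the values were 0.54, 0.61, 1.01 and 0.94. Without replicate 6 of that group the Day 12 value for P-IWP2 was -1.58.
The ratio of LMOD2 to TMOD1 sets the elongating against the capping partner of the pointed end. It was 0.0726 and 0.0557 in NP-IWP2, 0.111 and 0.101 in P-DF and 0.0299 and 0.109 in P-IWP2 cells on Day 12. On Day 16 the ratio was 0.945 and 0.399 in NP-IWP2, 2.12 and 1.82 in P-DF and 2.15 and 2.50 in P-IWP2 cells. LMOD2 exceeded TMOD1 in the 4 passaged libraries of Day 16 and in no other library.

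NEBL (ENSG00000078114, chromosome 10 from 20779973 to 21293011), nebulette, was, in NP-IWP2 and in P-DF cells, lower in both libraries of Day 16 than in both of Day 12. Its FPKM on Day 12 was 129.6 and 117.2 in NP-IWP2, 169.5 and 169.1 in P-DF and 66.22 and 165.5 in P-IWP2 cells. By Day 16 its FPKM was 80.57 and 80.27 in NP-IWP2, 138.6 and 136.1 in P-DF and 121.2 and 102.3 in P-IWP2 cells. The passaged libraries lay above the NP-IWP2 libraries of their day, except the Day 12 P-IWP2 replicate 5. The log2FC over time was -0.50 ± 0.38 in NP-IWP2, -0.04 ± 0.38 for P-DF and 0.30 ± 0.38 for P-IWP2, none called, and the last was -0.05 with total counts in place of TMM, -0.27 and not called without the Day 12 replicate 5, and 1.29 and called without replicate 6. Against NP-IWP2 cells on Day 16 it was 1.00 ± 0.39 for P-DF and 0.75 ± 0.39 for P-IWP2, not called. With 1 library left out at a time these values ran from 0.94 to 1.06 and from 0.69 to 0.81.
NEB (ENSG00000183091, chromosome 2 from 151485336 to 151734487), the giant nebulin of skeletal muscle, stayed between 0.12 and 0.35 FPKM in all 12 libraries, from 75 to 185 reads over an exon length of 33502 bases. The level of NEBL was 189 to 837 times that of NEB. NEB was the one gene of the 10 that was highest in the Day 12 P-IWP2 replicate 5. Its log2FC against NP-IWP2 cells was 0.88 ± 0.22 for P-DF and 1.00 ± 0.22 for P-IWP2 on Day 12, not called. The gene overlaps RIF1, with up to 2072 reads, on the opposite strand.

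TPM1 (ENSG00000140416, chromosome 15 from 63042632 to 63071915), the main tropomyosin gene of the heart, had the smallest range of the 10 genes, 2.14-fold. On Day 12 its FPKM was 331.8 and 314 in NP-IWP2, 353.6 and 314.5 in P-DF and 273 and 346.8 in P-IWP2 cells. The Day 16 FPKM was 358.2 and 292.7 in NP-IWP2, 485.1 and 403.3 in P-DF and 458.4 and 583.3 in P-IWP2 cells. The groups of Day 12 overlapped, and on Day 16 the 4 passaged libraries lay above both NP-IWP2 libraries. TPM1 was called higher in P-IWP2 than in NP-IWP2 cells on Day 16 with a log2FC of 0.96 ± 0.28, and the value in P-DF cells, 0.67 ± 0.28, was not called. It rose from Day 12 to Day 16 in P-IWP2 cells with a log2FC of 1.15 ± 0.28. Among TPM1, TPM2, TPM3 and TPM4, TPM1 made up 67.2% to 74.6% of the summed FPKM in every library. The table counts whole genes, so the muscle and other isoforms of TPM1 are not separated.

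XIRP1 (ENSG00000168334, chromosome 3 from 39183210 to 39192596) encodes Xin, an actin-binding protein of the intercalated disc. Its FPKM on Day 12 was 106.2 and 87.55 in NP-IWP2, 137.1 and 134.2 in P-DF and 21.88 and 127.3 in P-IWP2 cells. By Day 16 its FPKM was 112.7 and 84.45 in NP-IWP2, 264.4 and 184 in P-DF and 239.1 and 278.7 in P-IWP2 cells. Passaged libraries were above NP-IWP2 libraries on both days, again except the Day 12 P-IWP2 replicate 5. The Day 16 log2FC was 1.41 ± 0.65 for P-DF and 1.67 ± 0.66 for P-IWP2, not called. Models with 1 library left out gave 1.13 to 1.69 for P-DF and 1.43 to 1.96 for P-IWP2. Over time XIRP1 rose in P-IWP2 cells with a log2FC of 2.13 ± 0.67. The call held in 2 of 12 models with 1 library left out, at 1.33 without the Day 12 replicate 5 and 4.11 without replicate 6.
FHOD3 (ENSG00000134775, chromosome 18 from 36297713 to 36780220) encodes a formin that cardiomyocytes need to build sarcomeres. On Day 12 it had 31.38 and 27.92 FPKM in NP-IWP2, 51.74 and 53.07 in P-DF and 19.23 and 48.28 in P-IWP2 cells. By Day 16 the gene had 42.81 and 39.8 FPKM in NP-IWP2, 80.95 and 68.7 in P-DF and 70.02 and 61.99 in P-IWP2 cells. The P-DF libraries lay above the NP-IWP2 libraries on both days, and so did the P-IWP2 libraries on Day 16. The Day 16 log2FC against NP-IWP2 cells was 1.08 ± 0.38 for P-DF and 0.95 ± 0.38 for P-IWP2, neither called. Across models with 1 library left out they were 0.97 to 1.20 and 0.84 to 1.06. FHOD3 rose over time in P-IWP2 cells (1.32 ± 0.38), a call that held in 2 of 12 models with 1 library left out, at 0.75 without the Day 12 replicate 5 and 2.32 without replicate 6. It had a log2FC of 0.77 ± 0.38 in P-DF and 0.59 ± 0.38 in NP-IWP2 cells, not called.

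The question of the first comparison was how replating without IWP2 compares with static culture with IWP2. On Day 12 all 10 genes had a log2FC above 0 in P-DF cells, with a median of 0.73 against 0.00 for all genes tested, and 9 of the 10 did not overlap with NP-IWP2 cells, all higher on FPKM, where 24.6% of all genes were higher and 41.2% lower without overlap. None of the 10 was called by edgeR at Day 12, where 4.01% of all genes were called (0.697% higher and 3.32% lower), 4 had an unadjusted p under 0.05, DESeq2 called 2 and limma 0 of the 9 it tested (NEB was under its minimum of 1 FPKM on average). Of all 19505 genes, 4229 had an unadjusted p under 0.05 and DESeq2 called 1593, and limma on log2(FPKM + 1) called 386 of 13389. The Day 12 P-IWP2 replicates 5 and 6 are in neither group of this comparison but are in the model. Without either of them more of the 10 were called, and so were more of all genes tested. The added calls are thus not particular to the 10.
On Day 16 all 10 genes were again above 0 in P-DF cells, with a median log2FC of 1.03 against -0.02 for all genes tested, and LMOD3 was called, where 15.3% of all genes were called (5.39% higher and 9.86% lower). For 9 of the 10 the P-DF libraries lay above both NP-IWP2 libraries, with ACTA1 the exception, where 18.8% of all genes were higher and 50.2% lower without overlap. Without the Day 12 P-IWP2 replicate 5, or without replicate 6, more of the 10 were called, and so were more of all genes tested. On the same day the cardiomyocyte markers had a median log2FC of 1.26 in P-DF cells, and the 6 fibroblast markers summed to 19.65 to 24.45 FPKM against 1179 to 1217 FPKM in NP-IWP2 cells.

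The second comparison asked what replating adds to IWP2. In P-IWP2 cells on Day 12, 6 of the 10 genes had a log2FC above 0, with a median of 0.16 against 0.01 for all genes tested. No gene of the 10 was called by edgeR (1.66% of all genes were called, 0.328% higher and 1.33% lower), 2 had an unadjusted p under 0.05, DESeq2 called 1 and limma 0. Of all 19505 genes, 2243 had an unadjusted p under 0.05 and DESeq2 called 636, and limma on log2(FPKM + 1) called 177 of 13389. ACTA1, LMOD3 and NEB did not overlap with NP-IWP2 cells, all 3 higher, where 15.7% of all genes were higher and 17.7% lower without overlap. The 2 P-IWP2 libraries pointed apart. LMOD2, TMOD1, NEBL and FHOD3 had a log2FC of 1.37, 0.61, 0.51 and 0.79 without replicate 5. Without replicate 6 the values were -2.68, -1.58, -1.04 and -0.77. ACTA1, LMOD3 and NEB stayed above 0 in both models, and more of all genes tested were called in both.
On Day 16 all 10 genes were above 0 in P-IWP2 cells with a median log2FC of 1.12, against -0.03 for all genes tested, and LMOD3 and TPM1 were called, where 17.1% of all genes were called (7.15% higher and 9.95% lower). ACTC1 and NEB overlapped with NP-IWP2 cells and the other 8 were higher without overlap, where 16.2% of all genes were higher and 50.7% lower. Without the Day 12 P-IWP2 replicate 5, more of the 10 were called higher, but NEB was not, and more of all genes tested were called too. The TPM1 call was lost whenever 1 library outside that Day 12 group was left out, and the LMOD3 call without NP-IWP2 replicate 2 or P-IWP2 replicate 5 of Day 16. The median of the cardiomyocyte markers was 1.48, and the fibroblast markers summed to 28.87 to 29.9 FPKM.
Scaling by total counts moved the all-gene median on Day 16 to -0.25 (P-DF) and -0.31 (P-IWP2), and all 10 genes remained above 0 in both. P-DF and P-IWP2 cells were compared with the same NP-IWP2 libraries, so their values are not independent.

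**Figure D3:**
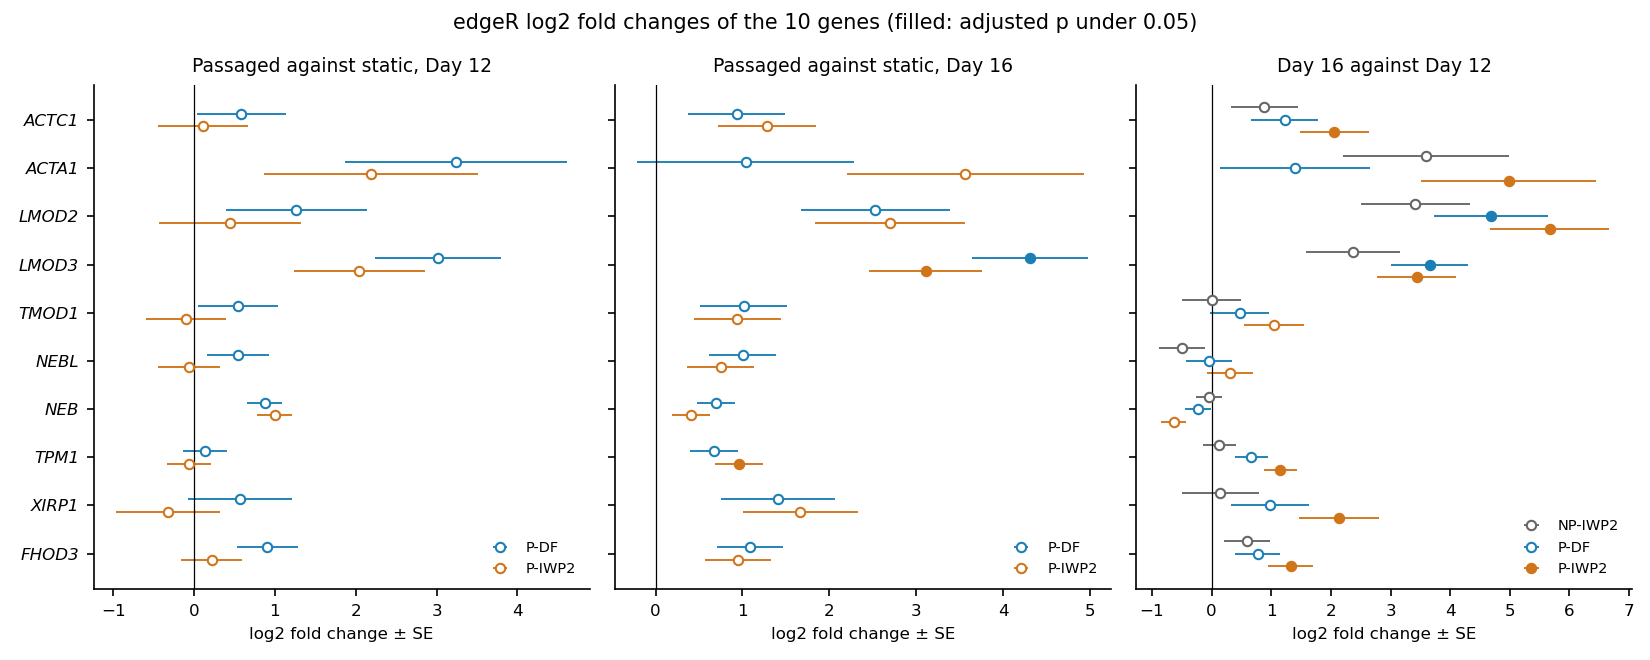
Log2 fold change of each of the 10 genes from edgeR with its standard error, for passaged against NP-IWP2 cells on each day and for Day 16 against Day 12 in each treatment. Filled points are past the threshold. On Day 16 all points of the passaged groups lie above 0, from 0.41 for NEB in P-IWP2 cells to 4.31 for LMOD3 in P-DF cells.

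The third comparison set P-IWP2 against P-DF cells, to ask what IWP2 adds after replating. edgeR called 0 of all genes tested on either day, 0% in the background, and 0 of the 10 had an unadjusted p under 0.05. DESeq2 and limma also called 0 of the 10. Of all 19505 genes, 2061 on Day 12 and 1567 on Day 16 had an unadjusted p under 0.05, and DESeq2 called 174 and 114. limma called 0 of 13389 on Day 12 and at most 3 on Day 16. On Day 12, 9 of the 10 had a log2FC below 0, with a median of -0.67. Without the P-IWP2 replicate 6, calls appeared among the 10, all lower, and also among all genes tested. Without replicate 5 they appeared in neither. On Day 16 the median was 0.05, with values from -1.20 ± 0.58 for LMOD3 to 2.53 ± 1.30 for ACTA1. ACTA1 was higher in both P-IWP2 libraries than in both P-DF libraries, while LMOD3, NEB, NEBL and TMOD1 were lower in both. Of all genes, 18.2% were higher and 23.5% lower without overlap on Day 16, and on Day 12, where FHOD3, NEBL and XIRP1 were lower without overlap, 19.4% were higher and 10.6% lower.

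From Day 12 to Day 16, edgeR called 0 of the 10 genes in NP-IWP2 cells, where 1.98% of all genes were called (0.877% higher and 1.10% lower), 3 had an unadjusted p under 0.05, DESeq2 called 2 and limma 0. Of all 19505 genes, 3836 had an unadjusted p under 0.05 there and DESeq2 called 1085, and limma on log2(FPKM + 1) called 429 of 13389. In P-DF cells 2 genes rose, the leiomodins LMOD2 and LMOD3, where 13.6% of all genes were called (6.79% higher and 6.81% lower). In P-IWP2 cells 7 genes rose, both actins, both leiomodins, TPM1, XIRP1 and FHOD3, where 27.0% of all genes were called (12.9% higher and 14.1% lower). Both libraries of Day 16 lay above both of Day 12 for 4 of the 10 under NP-IWP2, 7 under P-DF and 8 under P-IWP2, and below them for 2, 2 and 1. Of all genes, 24.0%, 18.2% and 11.6% were higher and 40.4%, 52.1% and 50.0% lower in this way. The 3 genes not called in P-IWP2 cells were TMOD1 (1.05 ± 0.50), NEBL (0.30 ± 0.38) and NEB (-0.64 ± 0.21). The median log2FC of the 10 was 0.37 for NP-IWP2, 0.88 for P-DF and 1.69 for P-IWP2, and the last included the low values of the Day 12 replicate 5. Leaving out 1 library at a time moved the calls among the 10 and among all genes tested. In P-IWP2 cells only the 2 leiomodins stayed called without the Day 16 replicate 6. In P-DF cells no gene of the 10 stayed called without the Day 12 replicate 3 or 4 or the Day 16 replicate 4. Fewer of all genes were called in these models too. Without the Day 12 P-IWP2 replicate 5, more of the 10 and more of all genes were called in NP-IWP2 and P-DF cells. With only the P-IWP2 groups of both days in the model, 0 of the 10 and 0 of all 17080 genes tested were called. Under scaling by total counts the number of genes above 0 changed from 8 to 7 in NP-IWP2 cells, with TMOD1 at -0.11, and from 9 to 8 in P-IWP2 cells, with NEBL at -0.05.
The interaction of treatment and day tests whether the difference from NP-IWP2 cells changed between the days. edgeR called none of the 10 for P-DF cells (0.482% of all genes, 0.174% higher and 0.308% lower, and 0 of the 10 with an unadjusted p under 0.05) or for P-IWP2 cells (1.84% of all genes, 0.774% higher and 1.06% lower, and 1 of the 10 with an unadjusted p under 0.05), and DESeq2 and limma called 0. In P-IWP2 cells the values were 2.25 ± 1.20 for LMOD2 and 1.98 ± 0.92 for XIRP1, and in P-DF cells -2.21 ± 1.79 for ACTA1. For P-IWP2 cells, XIRP1 was at 1.19 without the Day 12 replicate 5 and at 3.96 without replicate 6. In both models more of the 10 and more of all genes tested were called.

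Levels were also set against TNNT2, the cardiac troponin T gene on the same filament, whose level lay between 74.81 and 145.3 FPKM in all 12 libraries. TNNT2 was lower on Day 16 than on Day 12 in P-DF cells (78.73 to 106 against 125.6 to 145.3 FPKM). The same held in NP-IWP2 cells (74.81 to 87.84 against 97.06 to 110.7 FPKM), while the P-IWP2 libraries overlapped. A part of the higher Day 16 ratios in those 2 treatments thus comes from TNNT2. ACTC1 had 14.2 to 21.9 times the FPKM of TNNT2 on Day 12, and 52.6 and 53.4 times in P-DF cells and 40.6 and 92.1 times in P-IWP2 cells on Day 16. The NP-IWP2 libraries of Day 16 had ratios of 54.9 and 20.6, so the higher one lay above 3 of these 4 passaged libraries. LMOD2 was at 0.0285 to 0.0680 of TNNT2 on Day 12 outside replicate 5, at 0.616 and 0.213 in NP-IWP2 cells on Day 16 and at 1.65 to 2.20 in the 4 passaged libraries of that day. TMOD1 was at 0.471 to 0.623 of TNNT2 on Day 12 outside replicate 5 and at 0.533 to 1.04 on Day 16, and NEBL was at 0.840 to 1.73 over all 12 libraries. Relative to the same filament gene, every Day 16 library thus lay above every Day 12 library for LMOD2, while the ranges of NEBL overlapped between the days.

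**Figure D4:**
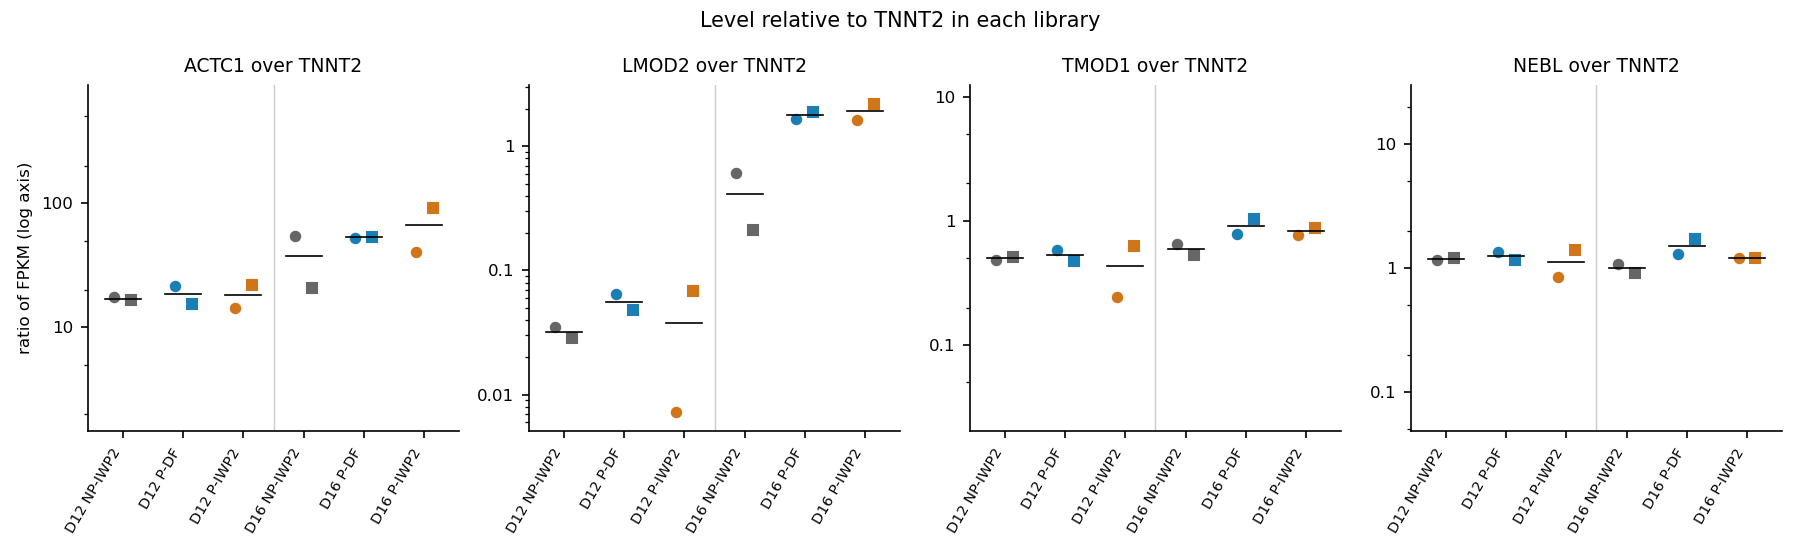
FPKM of 4 of the 10 genes divided by that of TNNT2 in the same library, on log axes of equal span, with the symbols and colors of the plot of the 10 genes by library. The ratio of LMOD2 runs from 0.00723 in the Day 12 P-IWP2 replicate 5 to 2.20 in P-IWP2 replicate 6 of Day 16, while that of NEBL stays between 0.840 and 1.73.

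A list of 43 other genes of the actin filament and its control was assembled by role, and all 43 were tested. Against NP-IWP2 cells on Day 16, 7 rose and 10 fell in P-DF cells, with a median log2FC of -0.01, and 13 rose and 6 fell in P-IWP2 cells, with a median of 0.40. Of all genes tested, 5.39% were called higher and 9.86% lower in P-DF cells, and 7.15% and 9.95% in P-IWP2 cells, with medians of -0.02 and -0.03. Scaling by total counts gave 5 and 10 (P-DF) and 8 and 8 (P-IWP2). Of all 19505 genes it called 3428 (558 of them higher) and 4155 (733 higher). On Day 12, 0 rose and 2 fell under P-DF, where 0.697% of all genes were called higher and 3.32% lower. For P-IWP2 edgeR called 0, with 2 at an unadjusted p under 0.05 and 0 by DESeq2 or limma. Of all 19505 genes, edgeR called 1.66% there, 2243 had an unadjusted p under 0.05 and DESeq2 called 636. Without the Day 12 P-IWP2 replicate 5, more of the 43 and more of all genes tested were called in both passaged groups on Day 16. Without P-DF replicate 3 or 4 of Day 16, fewer of the 43 and of all genes were called in P-DF cells. The same held in P-IWP2 cells without NP-IWP2 replicate 2 of Day 16.
The non-sarcomeric actins ACTB, ACTG1 and ACTG2 fell in both passaged groups on Day 16, and ACTA2 fell in P-DF cells. ACTB, the cytoplasmic beta-actin, had 472.3 and 474.3 FPKM in NP-IWP2, 155 and 135.5 in P-DF and 131.2 and 185.3 in P-IWP2 cells, and its log2FC was -1.47 ± 0.25 (edgeR adjusted p = 0.00619) and -1.29 ± 0.25 (edgeR adjusted p = 0.00984). ACTG1, the gamma-actin, had 392.2 and 409.3 FPKM in NP-IWP2, 62.34 and 64.94 in P-DF and 61.9 and 72.06 in P-IWP2 cells, and its log2FC was -2.42 ± 0.42 (edgeR adjusted p = 0.00619) and -2.30 ± 0.41 (edgeR adjusted p = 0.00722). ACTA2 had 218.9 and 130.7 FPKM in NP-IWP2 and 25.06 and 15.52 in P-DF cells, a log2FC of -2.89 ± 0.76 (edgeR adjusted p = 0.0328), and the P-IWP2 libraries differed, with 28.73 and 207.5 FPKM and a log2FC of -0.26 ± 0.70, not called. ACTG2, the enteric smooth muscle actin, had 1.88 and 1.7 FPKM in NP-IWP2 cells and 0.04 to 0.41 in the passaged libraries, and it fell by 5.00 ± 0.88 for P-DF and 2.57 ± 0.71 for P-IWP2 on the log2 scale.
Partners of the sarcomeric thin filament were among the genes that rose. TNNI3, cardiac troponin I, rose with a log2FC of 2.45 ± 0.37 for P-DF and 2.65 ± 0.38 for P-IWP2, from 9.15 and 4.31 FPKM in NP-IWP2 cells to 31.22 to 35.87 FPKM. NRAP, a nebulin-related protein of assembling myofibrils, had 0.22 and 0.01 FPKM in NP-IWP2 cells and 0.6 to 1.26 in the passaged libraries (log2FC 3.33 ± 0.88 and 3.21 ± 0.88). KLHL40, which stabilizes LMOD3 in skeletal muscle, had 0.17 and 0.02 FPKM under NP-IWP2, 0.99 and 1.36 under P-DF and 0.86 and 0.46 in P-IWP2 cells (3.73 ± 0.79 and 2.93 ± 0.80). XIRP2, the paralog of XIRP1, stayed at or under 0.15 FPKM and also rose (2.16 ± 0.59 and 2.54 ± 0.58). The formin DAAM2 fell, from 5.72 and 5.88 FPKM to 0.5 to 0.54 FPKM (-3.26 ± 0.44 and -3.19 ± 0.44). TMOD3, the tropomodulin of non-muscle cells, was named after its values were seen because it is the paralog of TMOD1, and fell from 4.68 and 4.9 FPKM in NP-IWP2 cells to 1.15 to 1.37 FPKM (-1.60 ± 0.28 and -1.73 ± 0.28).
Over time, 0 of the 43 were called in NP-IWP2 cells by edgeR, with 6 at an unadjusted p under 0.05, 1 called by DESeq2 and 0 by limma. Of all 19505 genes, edgeR called 386 there, 3836 had an unadjusted p under 0.05 and DESeq2 called 1085. In P-DF cells 8 rose and 3 fell (7 and 6 with total counts), where 6.79% of all genes were called higher and 6.81% lower. In P-IWP2 cells 15 rose and 5 fell (12 and 8), where 12.9% were called higher and 14.1% lower. With total counts, 3202 of all 19505 genes (672 of them higher) were called in P-DF cells and 7378 (1064 higher) in P-IWP2 cells. The interaction with day was called for 1 of the 43 with P-DF and 3 with P-IWP2, where 0.482% and 1.84% of all genes were called.

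**Figure D5:**
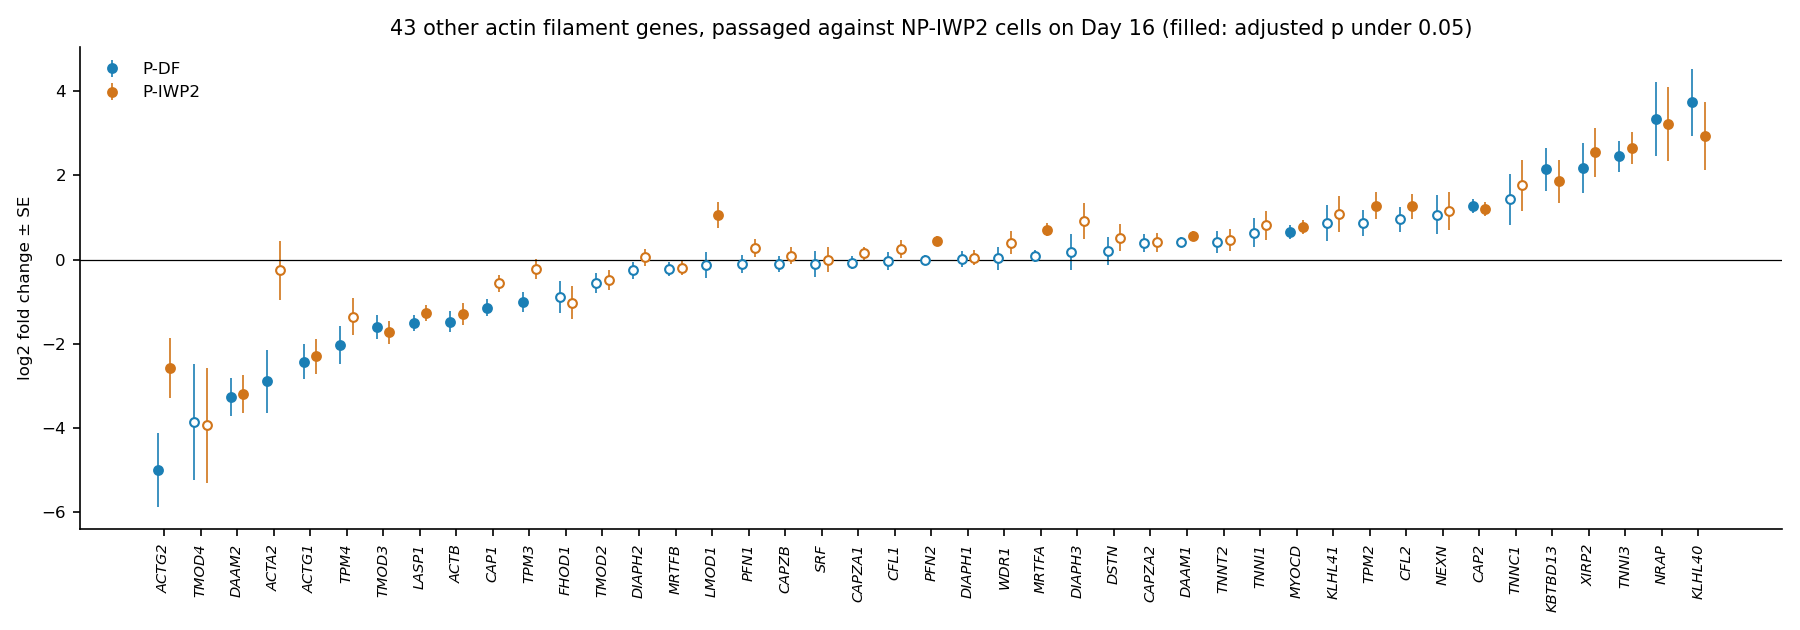
Log2 fold change with its standard error of 43 other actin filament genes, for P-DF (blue) and P-IWP2 (orange) against NP-IWP2 cells on Day 16, ordered by the P-DF value. Filled points are past the threshold. ACTG2 lies at -5.0 and KLHL40 at 3.73 in P-DF cells, and ACTA2 differs in position between the treatments, at -2.89 for P-DF and -0.26 for P-IWP2.

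The 12 libraries share their treatments, days and depths, so Pearson's r over them describes these libraries only. The genes most like ACTC1 and ACTA1 were sought by r of log2 CPM (counts scaled to library totals adjusted by TMM). For ACTC1 they were FUNDC2 (r = 0.987), NAA20 (0.985), ENSA (0.982), SAMD4A (0.981) and NDUFAF3 (0.980). For ACTA1 they were NES (r = 0.979), ALDH1B1 (0.967), HCCS (0.965), NPPB (0.963) and FKBP3 (0.962). Among the 10 genes themselves, ACTC1 followed TPM1 most closely (r = 0.970), then LMOD2 (0.941) and ACTA1 (0.940), and NEB did not follow it (-0.10).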

How the data were processed

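Total RNA was sequenced from 12 libraries of H1 cells, in 6 groups of 2. The authors deposited 1 table with raw read counts and FPKM per gene, and the submitters' processing notes name cutadapt 1.9.1, HISAT2 2.0.1, HTSeq 0.6.1, DESeq2 and hg38, without saying whether counting used strand. The labels name a SMRTbell kit, made for long reads, beside these short-read tools, and the read length is not given in the sources used here. The deposited FPKM equal count over exon length and library total, within 0.005. All 12 libraries were mapped to groups by the labels. Library totals were 14885589 to 19176239 reads (median 16452289). A count of 0 allows up to 3 reads, for counting error only.

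Counts were tested with edgeR 4.0.16 in R 4.3.3 (quasi-likelihood test, TMM, 19505 genes after the filter on low counts, 1 model of 6 groups, Benjamini-Hochberg adjustment over all genes, threshold 0.05). The standard error is the size of the log2FC over the square root of F. Alternatives were DESeq2 1.42.0, limma 3.58.1 on log2(FPKM + 1) and log2(FPKM + 0.1) of genes with at least 1 FPKM on average, total counts, no filter, only the groups compared, leaving out each library, and a replicate block. On simulated data for P-DF against NP-IWP2 cells on Day 16 (19505 genes), edgeR recovered 15 of 100 genes changed 2-fold and 53 of 100 changed 4-fold, with 3 false calls. All other genes had 1 mean in all groups, and the spread was that of the real fit with the Day 12 P-IWP2 replicate 5. The real comparison called 15.3% of all genes, so these numbers need not hold for it.

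The 10 genes and all gene lists were chosen with earlier results of these data known. From the 43 other genes, ACTB, ACTG1, ACTA2 and the 8 called genes with the largest log2FC on Day 16 are named, and others where stated. Genes like ACTC1 and ACTA1 were the 5 with the highest r among the named genes tested outside the 10. Promoters were scanned by pattern matching in Python 3.11.15, and actin coding sequences were aligned with Biopython 1.88.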

Additional observations from a re-analysis of the deposited data

How the results depend on the processing

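The counts of called genes moved with the test, the filter and the libraries in the model. For the 10 genes, passaged against NP-IWP2 cells, DESeq2 called 2 (P-DF) and 1 (P-IWP2) on Day 12 and 4 and 6 on Day 16. Of all 19505 genes it called 1593, 636, 3588 and 3911. No filter on low counts gave 7 and 3 on Day 12 and 9 and 9 on Day 16, and 3107, 1527, 4671 and 4954 of all 40332 genes. With only the groups compared in the model, 9 were called in P-DF cells on both days and 7 in P-IWP2 cells on Day 16. Of all genes, 5361 of 17995, 6927 of 17285 and 5127 of 17547 were called there. limma on log2(FPKM + 1) called 2 in P-DF cells on Day 16, and 2270 of all 13389 genes. For P-IWP2 against P-DF cells, no filter gave 7 on Day 12 and 2 on Day 16 (1687 and 645 of all 40332 genes). Only the groups compared gave 1 on Day 16 (253 of 16249). Over time DESeq2 called 2, no filter 5 and only the groups compared 5 in NP-IWP2 cells, and 1085 of 19505, 2045 of 40332 and 5124 of 18119 of all genes. In P-DF cells no filter called 7 (3830 of 40332) and only the groups compared 8 (6274 of 16813). In P-IWP2 cells only the groups compared called 0 (0 of 17080). The interaction for P-DF cells had 2 calls without the filter (1124 of 40332) and 1 with only the groups compared (2380 of 18871). That for P-IWP2 cells had 7 without the filter (2732 of 40332). For the 43 other genes, P-DF cells on Day 12 gave 7 with DESeq2, 15 without the filter, 1 and 0 with limma at pseudocounts of 1 and 0.1, and 26 with only the groups compared, and P-IWP2 cells gave 6 without the filter. In P-DF cells on Day 16, limma called 11 with either pseudocount and only the groups compared 27. Over time, NP-IWP2 cells gave 1 with DESeq2, 9 without the filter and 15 with only the groups compared, P-DF cells 17 without the filter and 25 with only the groups compared, and P-IWP2 cells 0 with only the groups compared. The all-gene counts given above for each setting are also the background of the counts for the 43. Those of limma at the 2 pseudocounts were 386 and 264 of 13389 in P-DF cells on Day 12, and 2270 and 2390 on Day 16. The cause of these differences was not tested.

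Leaving out 1 library at a time, in a model where the lone library of a group is assumed to vary like the others, moved the calls among the 10 genes over 0 to 7 (P-DF) and 0 to 6 (P-IWP2) on Day 12, 1 to 8 and 0 to 9 on Day 16, 0 to 7 and 0 to 1 for P-IWP2 against P-DF cells, 0 to 5, 0 to 7 and 2 to 10 over time in NP-IWP2, P-DF and P-IWP2 cells, and 0 to 0 and 0 to 8 for the interactions. For the 43 genes the ranges were 0 to 17, 0 to 8, 4 to 29 and 6 to 32 against NP-IWP2 cells, and 0 to 7, 2 to 26 and 13 to 38 over time. The highest counts came without the Day 12 P-IWP2 replicate 5 or 6, and so did the highest counts over all genes tested. The ACTA1 share ranged over 0.242% to 0.326%, 0.912% to 2.50% and 0.736% to 1.38% on Day 12 and 0.407% to 2.45%, 1.55% to 2.35% and 3.35% to 10.8% on Day 16, in NP-IWP2, P-DF and P-IWP2 cells. These shares are those of the single libraries that remained in each group. In P-IWP2 against NP-IWP2 cells on Day 12, LMOD2, TMOD1, NEBL and FHOD3 were at -2.68, -1.58, -1.04 and -0.77 without replicate 6 and at 1.37, 0.61, 0.51 and 0.79 without replicate 5, opposite in sign. Of 2008 single-gene values under alternatives, 1768 moved by less than the spread between partner libraries and 236 by more. The other 4 reversed sign where the value was called in at least 1 of the 2 models. A value that moved by less than the spread could still cross the threshold, since the side of the threshold was not compared.

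The libraries of a treatment share replicate numbers between the days. Deviations of same-numbered libraries correlated at 0.0754, -0.00154 and -0.031, so no shared deviation was seen. With 2 libraries per group, values near 0 cannot show whether same-numbered libraries came from the same culture, and the labels do not say. With the replicate block, calls over time were 0, 2 and 7 among the 10 genes in NP-IWP2, P-DF and P-IWP2 cells, 0 and 0 for the interactions, and 0, 9 and 25 among the 43. Over all 19505 genes they were 154, 1856 and 4659, with 12 and 388 for the interactions.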
